A study of Bos taurus with 9 samples.

Results

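Calcium and phospholipid signaling genes were examined in bovine uterine gland fragments in 3D culture: the platelet-activating factor receptor gene PTAFR, the G protein alpha subunit genes GNA14, GNA11 and GNAQ, the phospholipase C gene PLCB3, the IP3 receptor gene ITPR3, the protein kinase C gene PRKCD, the sphingosine kinase gene SPHK1 and the phospholipase D gene PLD1. These 9 genes were chosen by name with the differences between cultures with and without EGF already known from these libraries, so their values in that comparison are given as a description, without a test. Of the 9 genes, 8 were found by symbol among the 20679 genes of the files, and PLCB3 was not analysed here. All 8 passed the filter on low counts in each comparison.

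Fragments isolated from the uteri of abattoir cattle were embedded in Matrigel, a basement membrane extract, and RNA-seq was performed on day 5 of culture. The 9 libraries came from 3 conditions, with 3 libraries each: fragments without EGF in Matrigel, which form cysts (CYST), fragments with EGF in Matrigel, which form UG-LIKE structures (MAT), and fragments with EGF in Matrigel supplemented with type I collagen (MAT + COL). All groups therefore share Matrigel and the length of culture, and the labels give the tissue as uterine gland and the cell type as epithelial cells. The labels number the replicates 1 to 3 in each group without saying whether a number stands for an animal. The column names of the deposited data number several of these libraries otherwise, and the numbers used here are those of the sample titles. For MAT and MAT + COL the paper describes clustering mainly by individual, but its text does not link individuals to these numbers. The p-values therefore measure only the spread between these libraries, which may be partly technical.

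When a hormone or lipid mediator binds a receptor coupled to Gq/11 proteins, the alpha subunit activates phospholipase C beta, which cleaves a membrane phosphoinositide into IP3 and diacylglycerol. IP3 opens receptors on the endoplasmic reticulum that release calcium, and diacylglycerol recruits protein kinase C. Sphingosine kinase and phospholipase D make sphingosine-1-phosphate and phosphatidic acid, lipid messengers that act beside this route. In the endometrium, calcium and phospholipid messengers are known for their part in secretion and prostaglandin synthesis.

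Total counts ranged from 6568968 to 17948600 per library, with TPM (a share of all transcripts that is scaled by gene length) used for levels. The epithelial markers EPCAM, CDH1, KRT8, KRT18 and KRT19 were detected in all 9 libraries, and their summed TPM was 16647 to 18418 in CYST, 27601 to 43304 in MAT and 28179 to 38514 in MAT + COL. The gland markers FOXA2 and PAX8 summed to 23.6 to 62.6 TPM in CYST, 35.6 to 48.5 in MAT and 36.5 to 52.4 in MAT + COL, with FOXA2 itself at 1.31 to 12.4 TPM. The libraries also held stromal RNA, because 5 stromal markers, among them the collagen gene COL1A1 and the proteoglycan gene DCN, summed to 1291 to 2961 TPM in CYST, 461 to 1911 in MAT and 1177 to 2278 in MAT + COL. Smaller sums came from 3 smooth muscle markers (38.5 to 75.3, 21.8 to 44.1 and 38.7 to 42.3 TPM in the same order) and from 3 endothelial markers (10.4 to 16.0, 4.05 to 21.6 and 7.59 to 25.1 TPM). The epithelial sum, most of it KRT8 and KRT19, was higher in each library with EGF than in each library without it. The same held for EPCAM, KRT8 and KRT19 singly. KRT18 overlapped, at 292 to 698 TPM in CYST, 321 to 833 in MAT and 276 to 865 in MAT + COL. CDH1 overlapped between MAT + COL replicate 3 (450 TPM) and CYST replicate 2 (465 TPM). The part of the epithelial sum in the differences described here was not tested. In bulk RNA, a change in the number of cells of a type and a change in the RNA of a gene per cell cannot be told apart.

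With EGF, PTAFR, GNA14, PRKCD, SPHK1, PLD1 and ITPR3 were higher in MAT than in CYST, whereas GNA11 and GNAQ were at a similar low level in both groups. PTAFR and GNA14 stood out, with a Log2FC of 3.40 (SE 0.43, n = 3 per group) and 2.78 (SE 0.66), and the other genes of the group that were higher had a Log2FC between 1.04 and 1.40. The lowest MAT library lay above the highest CYST library for 6 of the 8 genes, as it did for 11.9% of the 12074 genes tested in this comparison. The same 6 genes were higher in MAT in each of the 3 same-numbered pairs of libraries, against 25.1% of all genes. Since this comparison chose the genes, nothing is read from these shares.

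**Figure D1:**
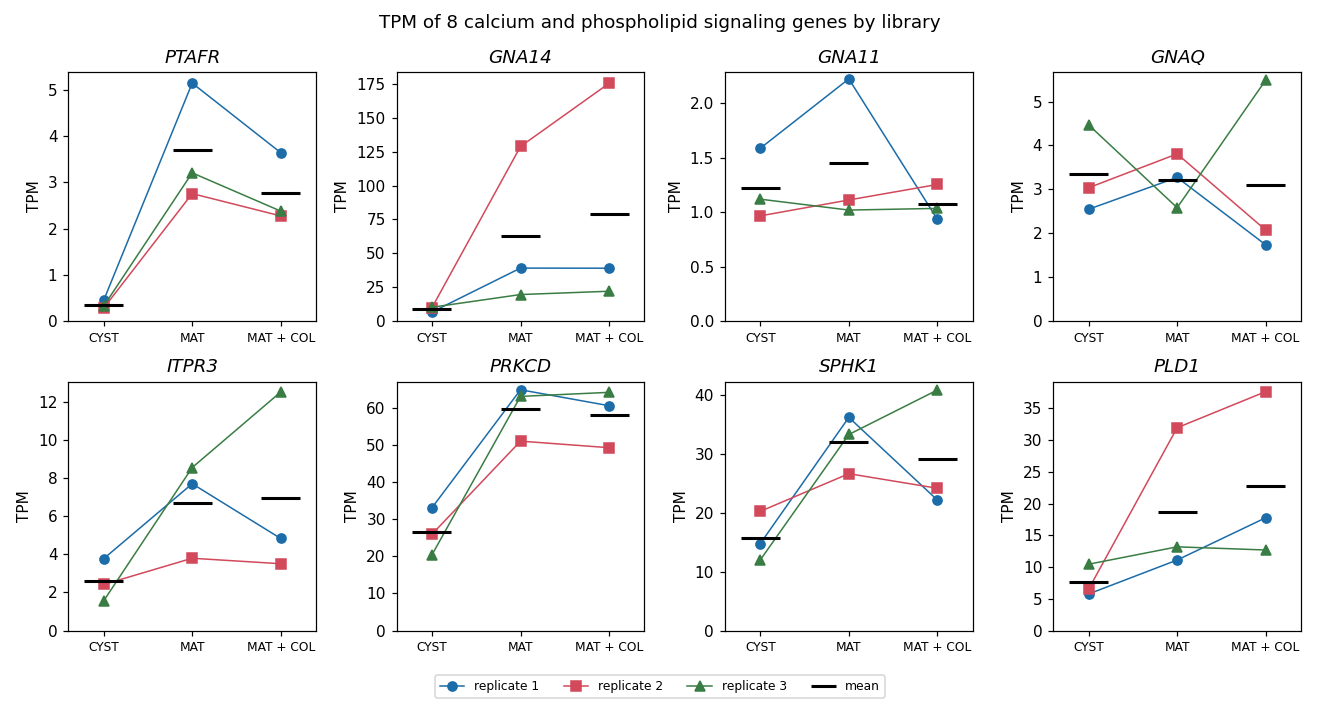
TPM (linear axis from 0, own scale per gene) of the 8 genes in CYST, MAT and MAT + COL, with 1 point per library, lines joining libraries of the same replicate number and black bars at the mean of 3 libraries. The points of PTAFR, GNA14, PRKCD, SPHK1 and PLD1 in both EGF groups lie above all their CYST points, and GNA14 in replicate 2 reaches 129 TPM in MAT and 176 TPM in MAT + COL.

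PTAFR encodes the receptor for platelet-activating factor, a phospholipid mediator, and lies on chromosome 2 (125182322 to 125229691, plus strand, ARS-UCD2.0, as are all positions here). Its level was 0.445, 0.278 and 0.321 TPM in CYST replicates 1, 2 and 3. In MAT the corresponding values were 5.15, 2.76 and 3.20 TPM, and in MAT + COL they were 3.64, 2.27 and 2.38 TPM. Each library with EGF was far above each library without it, and the groups did not overlap. The CYST values rest on 13 to 17 counts per library, against 126 to 230 counts in the libraries with EGF. The ratio of MAT to CYST within same-numbered pairs was 11.6, 9.90 and 9.997, in relative terms the narrowest range of ratios among the 6 higher genes. The Log2FC of MAT + COL against CYST, which shares the CYST libraries, was 2.92 (SE 0.40).

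Leukocytes are known to express PTAFR, so the leukocyte markers PTPRC, CD14, CD68, AIF1, ITGAM and CSF1R are given beside it. They summed to 25.4 to 36.5 TPM in CYST, 21.4 to 48.3 in MAT and 28.5 to 32.6 in MAT + COL, with overlapping ranges, and CD14 made up the largest part in each library. PTPRC, the pan-leukocyte marker, was at 0 to 1.19 TPM. In MAT replicate 3, where PTAFR was at 3.20 TPM, PTPRC, AIF1, ITGAM and CSF1R were at 0, whereas CD14 was at 45.2 TPM, its highest level in the 9 libraries, and CD68 at 3.08 TPM. The part of leukocytes in the PTAFR values was not tested.

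GNA14 encodes an alpha subunit of the Gq/11 class and lies on chromosome 8 (53363528 to 53663878, minus strand, ENSBTAG00000021127). It was measured at 6.59, 9.82 and 10.1 TPM in CYST, 39.0, 129 and 19.5 TPM in MAT and 39.0, 176 and 21.9 TPM in MAT + COL, in replicate order. Both groups with EGF were above CYST without overlap, but replicate 2 was several times higher than replicates 1 and 3 in each of them. Within same-numbered pairs, MAT exceeded CYST by a ratio of 5.92, 13.1 and 1.93, and MAT + COL exceeded CYST by 5.91, 17.9 and 2.17. The Log2FC of MAT + COL against CYST was 3.07 (SE 0.77). Without the replicate 2 library with EGF, the Log2FC was 1.68 for MAT and 1.64 for MAT + COL.

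The annotated GNA14 gene overlaps VPS13A on the opposite strand, and the strand setting of the counting was not given in the sources used here, so reads of the shared stretch cannot be assigned with certainty. VPS13A itself was at 2.66 to 5.91 TPM in CYST, 5.44 to 7.44 TPM in MAT and 5.08 to 6.48 TPM in MAT + COL. Its highest TPM in any library was below the lowest GNA14 TPM in MAT and MAT + COL, but above that of CYST replicate 1. In counts, which are not scaled by gene length, VPS13A had 247, 539 and 161 in CYST, against 46, 133 and 91 for GNA14. In MAT the counts were 272, 650 and 398 for VPS13A and 212, 1867 and 212 for GNA14. In MAT + COL they were 580, 630 and 466 for VPS13A and 546, 2536 and 299 for GNA14. The part of VPS13A reads in the GNA14 values was not tested.

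GNAQ, the neighbour of GNA14 on chromosome 8 (53685191 to 53995695, minus strand), and GNA11 on chromosome 7 (20696675 to 20712500, minus strand) encode the more widely expressed alpha subunits of the class. GNAQ was at 2.55, 3.04 and 4.47 TPM in CYST, 3.27, 3.81 and 2.58 TPM in MAT and 1.73, 2.07 and 5.49 TPM in MAT + COL. GNA11 was at 1.59, 0.965 and 1.12 TPM in CYST, 2.22, 1.11 and 1.02 TPM in MAT and 0.933, 1.25 and 1.03 TPM in MAT + COL. The 3 groups overlapped for both genes. Their Log2FC of MAT against CYST was -0.11 (SE 0.51) for GNAQ and 0.20 (SE 0.67) for GNA11, and these large errors go with low counts, since GNA11 had only 10 to 18 counts in a library. The 95% interval ran from -1.29 to 1.07 for GNAQ and from -1.34 to 1.75 for GNA11. Differences within these bounds are compatible with these libraries.

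Among the Gq/11 alpha genes, GNA14 held 61.5% to 71.0% of the summed TPM in CYST, 83.4% to 96.3% in MAT and 76.8% to 98.0% in MAT + COL. On these values GNA14 was the leading member of its class also without EGF. The CYST shares rest on 46, 133 and 91 GNA14 counts, and reads shared with VPS13A cannot be assigned with certainty. GNA15, the remaining gene of the class, had 0 to 8 counts per library. The summed TPM of the class was 10.7 to 15.8 in CYST, 23.4 to 134 in MAT and 28.6 to 179 in MAT + COL, and most of that difference lay in GNA14.

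**Figure D2:**
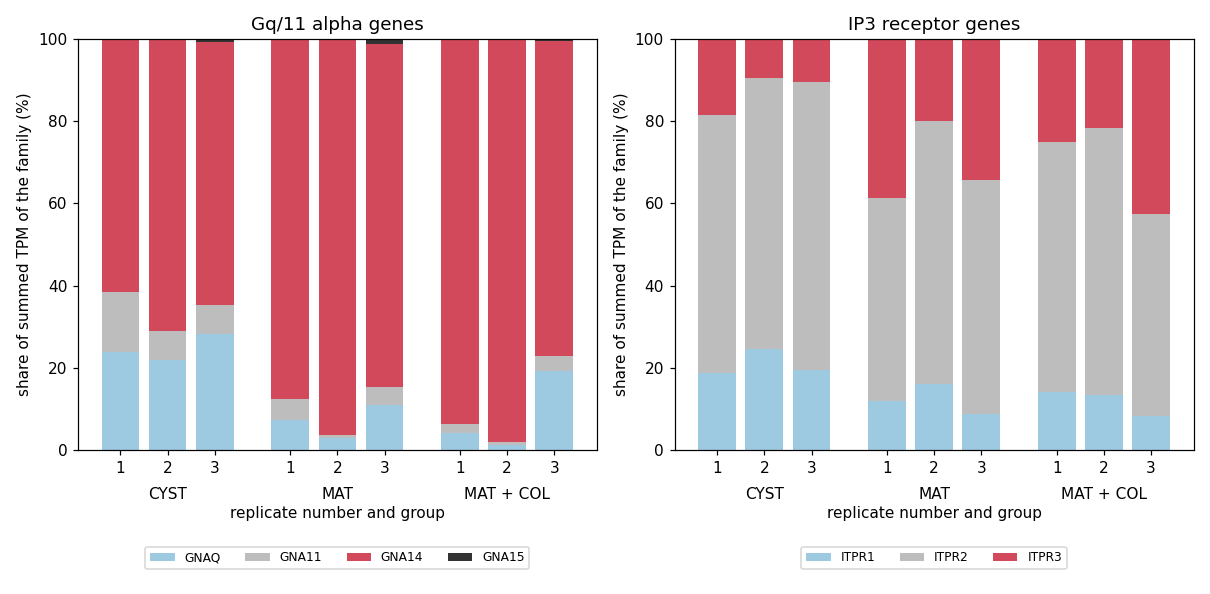
Stacked bars of the share (%) of each gene in the summed TPM of the Gq/11 alpha genes (left) and of the IP3 receptor genes (right), with 1 bar per library ordered by group and replicate number. GNA14 takes 61.5% to 71.0% in CYST and 76.8% or more in the libraries with EGF, and ITPR3 takes 9.50% to 18.6% in CYST and 19.9% to 42.6% with EGF.

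Phospholipase C beta is the direct effector of these alpha subunits. Of PLCB1, PLCB2 and PLCB4, PLCB4 held at least 97.3% of the summed TPM in each library. It was at 9.67, 23.6 and 19.1 TPM in CYST, 14.4, 55.1 and 24.3 TPM in MAT and 17.3, 71.0 and 19.6 TPM in MAT + COL. The groups overlapped, and the highest values were again those of replicate 2 with EGF. PLCB4 did not pass the test in any comparison of groups (MAT against CYST: Log2FC 0.82, SE 0.51, edgeR adjusted p = 0.415, and 0.107 with the replicate number as a block).

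ITPR3 encodes the type 3 IP3 receptor, a calcium release channel of the endoplasmic reticulum, and lies on chromosome 23 (7745549 to 7813182, plus strand). Its level was 3.77, 2.42 and 1.56 TPM in CYST, 7.70, 3.79 and 8.55 TPM in MAT and 4.83, 3.51 and 12.5 TPM in MAT + COL. MAT was just above CYST without overlap, the nearest values being 3.79 and 3.77 TPM, whereas MAT + COL overlapped CYST. The Log2FC was 1.40 (SE 0.41) for MAT and 1.43 (SE 0.55) for MAT + COL, and the latter was 0.60 without MAT + COL replicate 3.

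ITPR2, not ITPR3, was the most abundant IP3 receptor gene in all 9 libraries, with 49.1% to 70.0% of the summed TPM of the 3 genes. The ITPR3 share was 9.50% to 18.6% in CYST, 19.9% to 38.7% in MAT and 21.6% to 42.6% in MAT + COL. The summed TPM of the family overlapped between the groups, at 14.9 to 25.5 in CYST, 19.1 to 24.8 in MAT and 16.2 to 29.4 in MAT + COL. ITPR1 and ITPR2 did not pass the test between MAT and CYST (Log2FC -0.75, SE 0.30, adjusted p = 0.214, and Log2FC -0.13, SE 0.22, adjusted p = 0.791).

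PRKCD encodes protein kinase C delta, an isoform activated by diacylglycerol without calcium, and lies on chromosome 22 (47750240 to 47780548, minus strand). It was at 33.1, 25.9 and 20.4 TPM in CYST, 64.8, 51.0 and 63.0 TPM in MAT and 60.5, 49.2 and 64.1 TPM in MAT + COL. The groups with EGF were close to each other and above CYST without overlap. The Log2FC had the smallest errors of the 8 genes, at 1.18 (SE 0.21) for MAT and 1.08 (SE 0.21) for MAT + COL. Within the summed TPM of 9 protein kinase C genes, PRKCD held 17.0% to 18.8% in CYST, 23.8% to 29.1% in MAT and 22.8% to 28.5% in MAT + COL. The atypical isoform gene PRKCI was more abundant, with 31.9% to 54.1% of the sum over all libraries. PRKCZ held 10.9% to 33.2% and was above PRKCD in CYST replicates 1 and 3 and in MAT replicate 1, and below it in the other libraries. None of the 5 other protein kinase C genes tested (PRKCA, PRKCE, PRKCH, PRKCI and PRKCZ) passed the test between MAT and CYST, with or without the replicate block.

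SPHK1 encodes a sphingosine kinase and lies on chromosome 19 (55349376 to 55358657, minus strand). Its level was 14.8, 20.3 and 12.001 TPM in CYST, 36.2, 26.6 and 33.3 TPM in MAT and 22.2, 24.2 and 40.9 TPM in MAT + COL. Both groups with EGF were above CYST, but the margin in MAT + COL was narrow, from 20.3 to 22.2 TPM. The Log2FC was 1.04 (SE 0.23) for MAT and 0.87 (SE 0.32) for MAT + COL, and the latter was 0.47 without MAT + COL replicate 3. SPHK2, the other sphingosine kinase gene, was at 13.7 to 32.7 TPM in CYST and 23.1 to 42.3 TPM in MAT, and did not pass the test (Log2FC 0.56, SE 0.32, adjusted p = 0.364, and 0.0714 with the replicate block). The annotated SPHK2 gene overlaps RPL18 and DBP on the opposite strand, so shared reads cannot be assigned with certainty.

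PLD1 encodes a phospholipase D, which releases phosphatidic acid from phosphatidylcholine, and lies on chromosome 1 (95750164 to 95963604, plus strand). It was at 5.77, 6.52 and 10.5 TPM in CYST, 11.1, 31.9 and 13.2 TPM in MAT and 17.8, 37.6 and 12.7 TPM in MAT + COL. As with GNA14, replicate 2 was the highest library in both groups with EGF, and the values of the other EGF libraries ran from 11.1 to 17.8 TPM, all above the highest CYST library. The Log2FC was 1.25 (SE 0.47) for MAT and 1.47 (SE 0.47) for MAT + COL, and without replicate 2 of the EGF group it was 0.64 and 0.85. PLD2 was at 14.0 to 20.5 TPM in CYST and 25.2 to 32.1 TPM in MAT, without overlap, but its Log2FC of 0.66 (SE 0.19) did not pass the test (adjusted p = 0.104, and 0.0633 with the replicate block).

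Set side by side on the TPM scale, which allows comparison between genes, PRKCD and SPHK1 were the highest of the 8 genes in CYST, with means of 26.5 and 15.7 TPM and ranges that overlapped neither each other nor GNA14. GNA14 (8.84 TPM) and PLD1 (7.58 TPM) overlapped and were followed by GNAQ, ITPR3 and GNA11, of which each overlapped the next, and PTAFR (0.348 TPM) was the lowest. With EGF, GNA14 had the highest mean (62.5 TPM in MAT and 78.8 TPM in MAT + COL), but it overlapped PRKCD (59.6 and 57.9 TPM) and was above it in only 1 of 3 libraries of each group. SPHK1 and PLD1 overlapped in both EGF groups, ITPR3, PTAFR and GNAQ overlapped one another in the order of their means, and GNA11 was the lowest. PTAFR thus moved from below GNA11 in each CYST library to above it in each library with EGF.

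The comparison of MAT + COL with CYST reused the CYST libraries and gave a like picture for most of the 8 genes. The lowest MAT + COL library lay above the highest CYST library for 5 of 8 genes, against 14.3% of the 12509 genes tested. ITPR3 was the gene that overlapped here and not in MAT. The 6 higher genes were above CYST in each same-numbered pair, against 29.6% of all genes. The genes were chosen with differences from these same CYST libraries known, so nothing is read from these shares either.

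**Figure D3:**
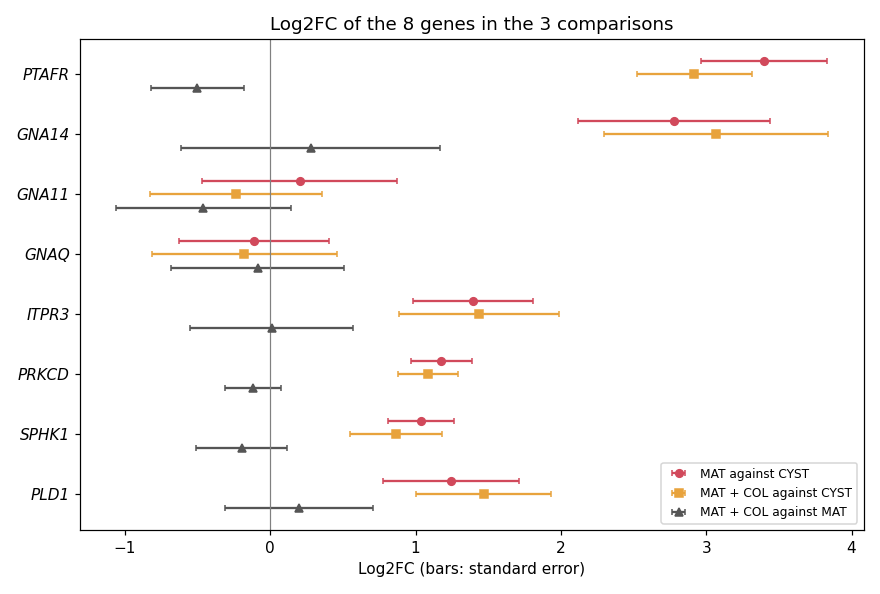
Log2FC of the 8 genes in MAT against CYST (circles), MAT + COL against CYST (squares) and MAT + COL against MAT (triangles), from edgeR with 3 libraries per group; bars are standard errors. PTAFR and GNA14 have the largest Log2FC against CYST, between 2.78 and 3.40, and the triangles of all 8 genes lie between -0.50 and 0.28.

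Whether type I collagen changed these genes in the presence of EGF was tested by comparing MAT + COL with MAT, a contrast that did not serve to choose the genes, although the MAT libraries did. None of the 8 genes passed edgeR's test (adjusted p = 1.00 for each), and neither did any of the 12470 genes tested, a background of 0%. In the fit blocked by replicate number, the adjusted p of the 8 genes was 0.955 to 0.972 and the background was again 0%. At an unadjusted p under 0.05 there were 51 genes without the block and 618 with it, none of the 8 among them, and DESeq2 also called 0 genes.

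PTAFR was the nearest to a difference. It was lower with collagen in each of the 3 same-numbered pairs, with ratios of 0.707, 0.825 and 0.742, against 7.95% of all genes that were lower in each pair. The MAT libraries served in choosing PTAFR, so that share is not an equal background for a fall from MAT. Its Log2FC was -0.50 (SE 0.32, 95% interval -1.25 to 0.25). With the block it was -0.48 (95% interval -0.97 to 0.01, unadjusted p = 0.0545, adjusted p = 0.955), so a fall with collagen was not shown.

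For the other genes the interval of the difference tells what these libraries could have missed. PRKCD had the narrowest, with a Log2FC of -0.12 (95% interval -0.57 to 0.34), and SPHK1 followed with -0.19 (-0.93 to 0.54). PLD1 had a Log2FC of 0.20 (-0.997 to 1.40) without the block and 0.20 (-0.11 to 0.52) with it. GNA14 had one of 0.28 (-1.82 to 2.38) without the block and 0.14 (-0.18 to 0.46) with it. Pairing the libraries by replicate number thus narrowed the interval of GNA14 most, and same-numbered libraries of the EGF groups were close to each other (ratios of 0.998, 1.36 and 1.12). ITPR3 had a Log2FC of 0.01 (-1.31 to 1.33), and -0.14 (-0.65 to 0.37) with the block. The intervals of GNAQ (-0.09, from -1.48 to 1.31) and GNA11 (-0.46, from -1.87 to 0.96) are the widest among the genes other than GNA14.

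The differences between replicate numbers were then tested in the 6 libraries with EGF, with the replicate number as the tested term beside the gel, a test added after the values had been seen. Of the 8 genes, 3 passed it (GNA14, PLD1 and ITPR3), or 37.5%, against a background of 25% of the 12470 genes. For so few genes this count is near the background, and it is not read as particular to them. GNA14 was higher in replicate 2 than in replicate 1 by 2.03 on the log2 scale and had a Log2FC of -2.76 for replicate 3 against replicate 2 (edgeR adjusted p = 1.09e-05). PLD1 moved the same way, with 1.35 and -1.30 (adjusted p = 0.000316). ITPR3 went the other way, with -0.69 for replicate 2 against 1 and 1.65 for replicate 3 against 2 (adjusted p = 0.00454).

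PLCB4, the most abundant of the 3 phospholipase C beta genes measured here, had differences of 2.05 and -1.40 (adjusted p = 8.11e-05). GNA14, PLCB4 and PLD1 were therefore each highest in the 2 libraries numbered 2, whereas ITPR3 was lowest there and highest in the 2 libraries numbered 3. SPHK1 (adjusted p = 0.0921), PRKCD (0.0944), PTAFR (0.146), GNAQ (0.487) and GNA11 (0.950) did not pass. When the CYST libraries were included, none of the 8 genes passed (GNA14 adjusted p = 0.0630, PLD1 0.206, ITPR3 0.210), while PLCB4 did (0.0118), against a background of 9.92% of 12858 genes. In CYST, GNA14 was at 9.82 TPM in replicate 2 and 10.1 TPM in replicate 3, so replicate 2 was not the highest there. PLD1 was highest in CYST replicate 3 (10.5 TPM) and ITPR3 was lowest there (1.56 TPM), whereas PLCB4 was highest in CYST replicate 2 (23.6 TPM). Whether the replicate differences themselves differed between CYST and the EGF groups was not tested.

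The genes whose pattern was most like that of GNA14 over the 9 libraries on the log2 CPM scale (reads scaled to library size), among 12858 genes, were a gene without a symbol (ENSBTAG00000008747, chromosome 19, 50873424 to 50876120, Pearson's r = 0.980), the zinc finger gene ZMYM6 (r = 0.978) and CRABP2 (r = 0.976), which encodes a retinoic acid binding protein. These values are descriptions, and the libraries share groups and replicate numbers. CRABP2 was at 8.18, 12.5 and 13.2 TPM in CYST, 67.5, 159 and 29.0 TPM in MAT and 33.1, 137 and 24.7 TPM in MAT + COL. Like GNA14, it was higher in both groups with EGF and highest in replicate 2 of each. ENSBTAG00000008747 and ZMYM6 had smaller differences between the groups. Their means were 39.6 and 20.9 TPM in CYST, 64.4 and 30.2 TPM in MAT and 69.2 and 31.1 TPM in MAT + COL. A high r thus did not go with a difference of like size.

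The pathway around these genes was covered by 9 lists with 143 other genes, of which 137 were in the files. Several of them, such as PLCD1, PLCD3, CAMK2D, F2R and ORAI2, are also among the changed genes that the study's supplement lists from these same samples, so the counts are not independent evidence of direction. Between MAT and CYST, 96 of these genes were tested, and 3 rose and 1 fell (4.17%), against 1.79% of all genes tested. The median Log2FC was 0.20 over the lists and 0.01 over all genes. With the replicate block, 12 rose and 3 fell (15.6%), against 10.6% of all genes. The calls without the block depended on single libraries, because none was left without CYST replicate 1 or 2 or without any MAT library, and 5 were made without CYST replicate 3. With the block there were 0 calls without replicate 1, 9 without replicate 2 and 22 without replicate 3.

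The genes that rose without the block were CAMK2D, a calcium/calmodulin-dependent kinase gene, and the phospholipase C delta genes PLCD1 and PLCD3. PLCD1 was at 23.1, 23.6 and 31.4 TPM in CYST and 81.0, 65.0 and 84.3 TPM in MAT (Log2FC 1.52, SE 0.26, adjusted p = 0.0404). PLCD3 was at 7.23, 8.11 and 6.26 TPM in CYST and 23.7, 16.9 and 20.8 TPM in MAT (Log2FC 1.498, SE 0.24, adjusted p = 0.0349). CAMK2D was at 8.90, 8.68 and 6.60 TPM in CYST and 26.3, 19.0 and 21.3 TPM in MAT (Log2FC 1.46, SE 0.21, adjusted p = 0.0283). For all 3 genes the MAT libraries lay far above the CYST libraries. PLPP3, which encodes a phosphatase that degrades lysophosphatidic acid and sphingosine-1-phosphate, fell from 183, 178 and 83.2 TPM in CYST to 62.5, 57.5 and 53.8 TPM in MAT (Log2FC -1.33, SE 0.24, adjusted p = 0.0450).

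By list, phospholipase C had 2 of 7 tested genes that rose without the block and 3 of 7 with it, where PLCE1 was the gene added (Log2FC 2.87, SE 0.64, adjusted p = 0.0619, and 0.0329 in the blocked fit). PLCE1 was a low gene, at 0.0957 to 0.222 TPM in CYST and 0.753 to 2.18 TPM in MAT. Of 15 genes for calmodulin, CaM kinase and calcineurin, CAMK2D rose without the block, and PPP3CA was added with it. Of 16 genes for calcium stores and pumps, none passed without the block, and ORAI2 and ATP2B4 rose with it. None of 8 protein kinase C and D genes and none of 8 regulators of Gq signaling passed in either fit. Of 6 diacylglycerol kinase genes, DGKA rose with the block only, and of 17 genes for sphingolipid, phospholipase D and PAF enzymes, only PLPP3 passed in either fit.

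Among 19 Gq-coupled and lipid mediator receptor genes tested, none passed without the block, and with it LPAR6, F2R, P2RY2 and LPAR2 rose while P2RY1 and S1PR1 fell. P2RY2 overlaps P2RY6 on the same strand, so reads of their shared stretch cannot be assigned with certainty. LPAR6, a lysophosphatidic acid receptor gene, was at 5.92, 2.80 and 20.5 TPM in CYST, 57.8, 104 and 94.0 TPM in MAT and 92.8, 117 and 100.1 TPM in MAT + COL. The libraries with EGF were all well above those without, and CYST replicate 3 was the highest of the 3 CYST libraries. Its Log2FC of MAT against CYST was 3.00 (SE 0.75, adjusted p = 0.0783), and 3.50 with the block (adjusted p = 0.0147). LPAR6 lies within RB1 on the opposite strand, so shared reads cannot be assigned with certainty, and RB1 was at 1.62 to 2.69 TPM over the 9 libraries.

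F2R, which encodes a thrombin receptor, was at 30.9, 7.42 and 12.3 TPM in CYST and 60.8, 17.8 and 69.0 TPM in MAT (Log2FC 1.56, SE 0.63, adjusted p = 0.212, and 0.0168 with the block). The groups overlapped, but MAT was higher in each same-numbered pair. P2RY1, an ADP receptor gene, was at 4.97, 6.56 and 3.77 TPM in CYST and 2.60, 1.11 and 1.23 TPM in MAT (Log2FC -1.65, SE 0.40, adjusted p = 0.0719, and 0.0313 with the block). S1PR1, a receptor gene for the product of SPHK1, was at 2.20, 6.76 and 12.5 TPM in CYST and 0.890, 1.57 and 7.98 TPM in MAT (Log2FC -1.09, SE 0.91, adjusted p = 0.545, and 0.0373 with the block). S1PR1 was lower in MAT in each pair although the groups overlapped.

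**Figure D4:**
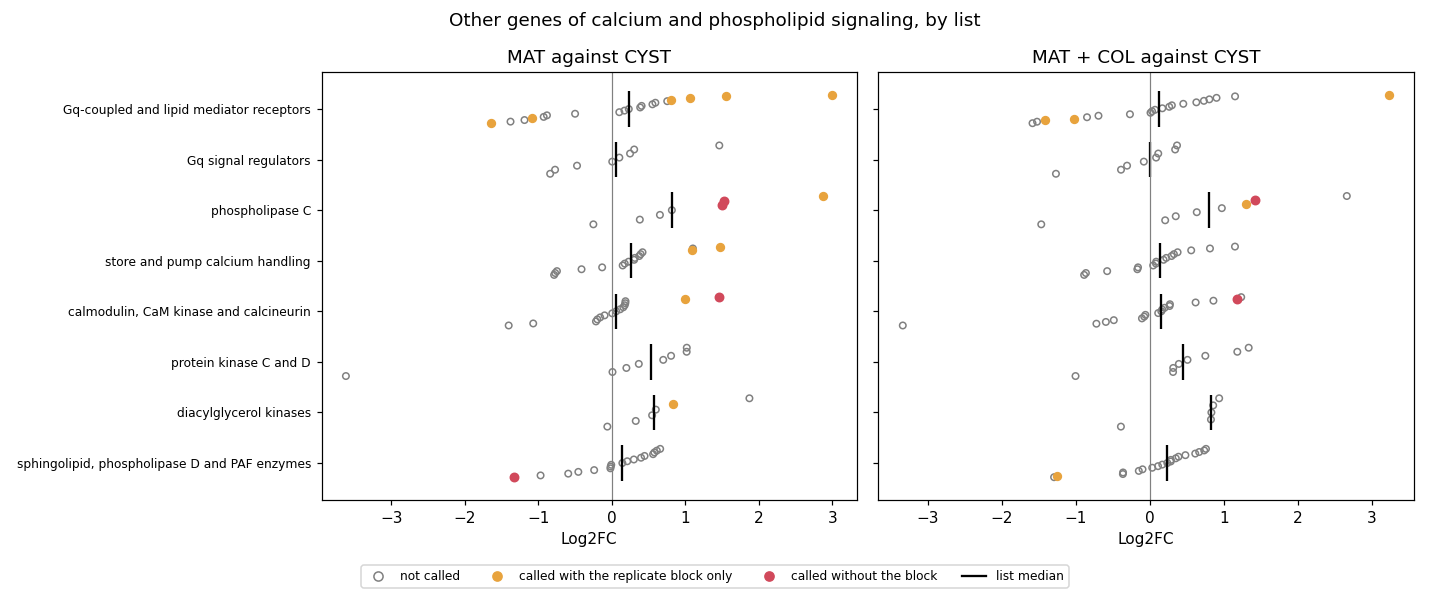
Log2FC of the other genes of the pathway by list, for MAT against CYST (left) and MAT + COL against CYST (right), with 1 point per gene tested, filled where the edgeR adjusted p is under 0.05 without the replicate block (red) or with it only (orange), and a black bar at the list median. LPAR6 is the orange point at 3.00 (left) and 3.23 (right) in the receptor list, and most points of each list are not called.

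Between MAT + COL and CYST, 101 genes of the lists were tested, and PLCD3 (Log2FC 1.42, SE 0.21, adjusted p = 0.0373) and CAMK2D (Log2FC 1.18, SE 0.20, adjusted p = 0.0413) rose (1.98%, against 1.49% of all genes). With the block, LPAR6 (Log2FC 3.23 without the block, adjusted p = 0.0336 with it), PLCD3, PLCD1 and CAMK2D rose, and S1PR1, PLPP3 and the bradykinin receptor gene BDKRB2 fell (6.93%, against 5.26%). Without the block there was 1 call without CYST replicate 3 or MAT + COL replicate 3 and none without any other library. The median Log2FC was 0.22 over the lists and 0.04 over all genes.

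Between MAT + COL and MAT, none of 100 genes of the lists passed edgeR's test with or without the block, and DESeq2 called none. At an unadjusted p under 0.05 there were 1 gene without the block and 6 with it. The median Log2FC of the lists was -0.01. With the replicate number as the tested term in the libraries with EGF, 32 of the 100 genes passed (32%), against 25% of all genes.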

How the data were processed

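Sequencing reads of 9 libraries (3 per group, day 5) were trimmed by the authors and aligned to the bovine genome ARS-UCD2.0 in CLC Genomics Workbench. The authors deposited unnormalized read counts of 20679 genes and, in a second table, TPM, which the authors scaled by gene length and library total. The annotation release, the strand setting and the test behind the study's DEGs were not given in the sources used here. Reads carried no molecular identifiers.

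For each comparison, edgeR 4.0.16 in R 4.3.3 was run on the counts of its 6 libraries. Genes were filtered by filterByExpr by group (minimum count of 10) and scaled by TMM. The quasi-likelihood test (glmQLFit, glmQLFTest) was adjusted after Benjamini and Hochberg across the whole table, with a threshold of 0.05. Standard errors were derived from that test, as the absolute Log2FC divided by the square root of its F statistic. The 95% intervals used these errors and a t quantile on the total degrees of freedom of the fit. For the members in comparisons with CYST, errors and intervals belong to the description and are not read as a test. Log2 CPM used a prior count of 2. The scripts were tested on simulated data. Figures were drawn with matplotlib 3.10.9.

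The members and lists were chosen with earlier results of these data known. The genes named are all members, the other genes of their families, the 3 genes most like GNA14 by Pearson's r, the cell type markers and, in each comparison, the 3 genes of the pathway lists with the largest Log2FC in each direction among those called with or without the block. The other genes called in MAT against CYST with or without the block are named outside this rule, after their values were seen.

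Same-numbered libraries were taken as pairs: their deviations from the group means correlated by 0.329 to 0.437 (MAT and CYST), 0.471 to 0.687 (MAT + COL and MAT) and 0.278 to 0.350 (MAT + COL and CYST) across genes. A second fit therefore blocked by replicate number. Other alternatives were DESeq2 1.42.0, RLE size factors, no filter on low counts, all 9 libraries in the fit and leaving out each library. Chosen after seeing the data were the block with each replicate number left out and the test of the replicate number.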

Additional observations from a re-analysis of the deposited data

How the results depend on the processing

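Between MAT and CYST, 216 genes and 4 genes of the pathway lists were called without the replicate block. DESeq2 called 1278 and 16, the replicate block 1277 and 15, and the fit on all 9 libraries 580 and 10. Leaving out 1 library gave 5 to 267 and 0 to 5, and leaving out a replicate number with the replicate block gave 36 to 1867 (614 without replicate 2) and 0 to 22. Between MAT + COL and CYST, 186 genes and 2 genes of the lists were called, against 1524 and 13 with DESeq2, 658 and 7 with the replicate block, 601 and 6 with all 9 libraries, 3 to 186 and 0 to 1 without 1 library, and 109 to 2406 and 0 to 22 with the replicate block without a replicate number. Between MAT + COL and MAT there were 0 calls in all these fits but the replicate block without a replicate number, which gave 0 to 46 genes and 0 to 1 genes of the lists. The 3 genes called for the replicate number became 0 with all 9 libraries, and all genes called for it 1276 in place of 3123, and leaving out 1 library gave 3 to 4 genes. The cause of these changes was not tested. RLE size factors and no filter on low counts kept each count within 1.5 times.

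The Log2FC of MAT + COL against MAT changed sign for several genes, none of them called. ITPR3 was -0.14 with the replicate block. Without 1 library the Log2FC ranged from -1.12 to 1.37 for GNA14, from -0.86 to 0.23 for GNAQ, from -0.58 to 0.010 for SPHK1, from -0.39 to 0.82 for PLD1 and from -0.81 to 0.33 for ITPR3. With the replicate block and without 1 replicate number it ranged from -0.0051 to 0.28 for GNA14, from -0.70 to 0.054 for GNA11, from -0.98 to 0.071 for GNAQ (0.063 without replicate 1), from -0.51 to 0.032 for SPHK1 and from -0.48 to 0.19 for ITPR3 (-0.12 without replicate 2). Where leaving out a library left 1 library in a replicate number, that library was assumed to vary like the others. The counts of 10 to 18 per library for GNA11 limit what can be said of it.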
